A study of Mus musculus with 24 samples.

Results

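The genes described here encode the Myc, Max and Mxd network of transcription factors. They were chosen by symbol: Myc, Mycn, Mycl, Max, Mxd1, Mxd3, Mxd4, Mxi1, Mnt and Mlx. All 10 were found among the 19938 genes that the platform annotation names, each through 1 probe set. The RNA came from NIH3T3 cells, a permanent line of mouse embryo fibroblasts grown with 10% serum, and was read on 24 Affymetrix MoGene 1.0 ST arrays. Every culture had been held for 96 h in 1 mM difluoromethylornithine (DFMO), which inhibits ornithine decarboxylase and so depletes polyamines. The 0 min group received no spermidine, while the other 7 groups received 10 µM spermidine together with 1 mM aminoguanidine and were harvested after 30, 60, 120, 240, 360, 480 or 600 min, with 3 biological replicates in each group. Aminoguanidine, which keeps serum amine oxidases from breaking down spermidine, is not mentioned for the 0 min group. No array is labelled as DFMO alone at a later time, so time in culture and spermidine cannot be told apart, and the cells' polyamine content was not analysed here.

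Proteins of this network share a basic helix-loop-helix leucine zipper. Myc and its relatives Mycn and Mycl bind DNA as partners of Max, mostly at the E-box CACGTG, and activate genes of growth and division. Mxd1, Mxd3, Mxd4, Mxi1 and Mnt also pair with Max at the E-box, but bring Sin3 corepressor complexes. Some of them are best known from arrested and differentiating cells, but Mxd3 is known from dividing cells and Mnt is widely expressed. Mlx is a separate partner that pairs with Mxd1, Mxd4, Mnt and the glucose-sensing factors Mlxip and Mlxipl. Odc1, the gene of ornithine decarboxylase, is a textbook Myc target, which ties the network to polyamine synthesis.

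The E-box itself lies close to the annotated start of several of these genes. RefSeq promoter windows of 300 bases (250 before to 50 after the start, build GRCm38.p6) were matched for 9 of the 10 genes, and Myc had no entry. CACGTG, which reads the same on both strands, was found in 4 of the 9 genes, namely Max, Mxd4, Mnt and Mlx. It was found in 7.15% of the 32851 windows in the table, or in 8.09% of its 27025 genes. The stretches holding it are shown, 5′ to 3′ on the gene's own strand, because CACGTG is the sequence that the network's own proteins bind. The E-box is in capitals.

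Max, chr12:76962234-76962263, minus strand: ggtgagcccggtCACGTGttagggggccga
Mxd4, chr5:34187841-34187960, minus strand: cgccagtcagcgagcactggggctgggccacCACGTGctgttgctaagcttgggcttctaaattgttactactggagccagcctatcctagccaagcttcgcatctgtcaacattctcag
Mnt, chr11:74830744-74830863, plus strand: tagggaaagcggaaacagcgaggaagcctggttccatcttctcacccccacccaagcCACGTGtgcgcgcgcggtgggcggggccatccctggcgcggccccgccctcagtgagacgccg
Mlx, chr11:101087170-101087289, plus strand: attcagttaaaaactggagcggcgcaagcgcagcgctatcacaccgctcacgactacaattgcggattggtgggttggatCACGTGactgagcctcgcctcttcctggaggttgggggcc

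Counted from the annotated start, the first base of the E-box lay at position -3 in Max, -40 in Mlx, -123 in Mnt and -219 in Mxd4. These letters are a match in the sequence, and binding was not measured. The 3 windows of Mxi1 held no CACGTG, and 1 of them held GTAAACA, the core of the FOXO motif, which 3.65% of all windows hold on either strand. Among the E2F motifs TTTGGCGC, TTTCGCGC and TTTCCCGC, read on both strands, the Mycn window held TTTGGCGC at -183 and -168 and TTTCGCGC at -179, and 1.84% of windows hold at least 1 of them. The matches at -183 and -179 overlap.

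The array values are log2 signals after robust multi-array averaging. A gene was called changed at a Benjamini-Hochberg adjusted p under 0.05 from a limma model over all genes, with 1 mean per time. The array medians lay between 4.4 and 4.45. All 9 fibroblast markers checked were brighter than the median gene, against 3 of 17 markers of macrophages, epithelium, endothelium, muscle and adipocytes (Cd68, Cdh1 and Des). On the first principal component, 2 arrays lay away from the other replicates of their time. Replicate 3 of 120 min lay at 2.61 against -12.2 for both other replicates, and replicate 3 of 240 min at -13.2 against 2.07 and 1.49. Each of them thus lay next to the arrays of the other's time, and whether the 2 were exchanged was not tested. If they were, every value at 120 and 240 min mixes both times. This pair that stood apart was kept under its labels, and results that rest on it are given with and without it. For every gene the 3 replicate numbers had equal means over the 8 times, to within 8.75e-05, so an effect of replicate number had been removed before deposit. Since the model does not count that removal, it gives p-values slightly below their true size. Adding replicate number as a block accounts for it, and that value is given where it ends a call. A log2 signal from a culture cannot tell fewer expressing cells from less RNA per cell.

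**Figure D1:**
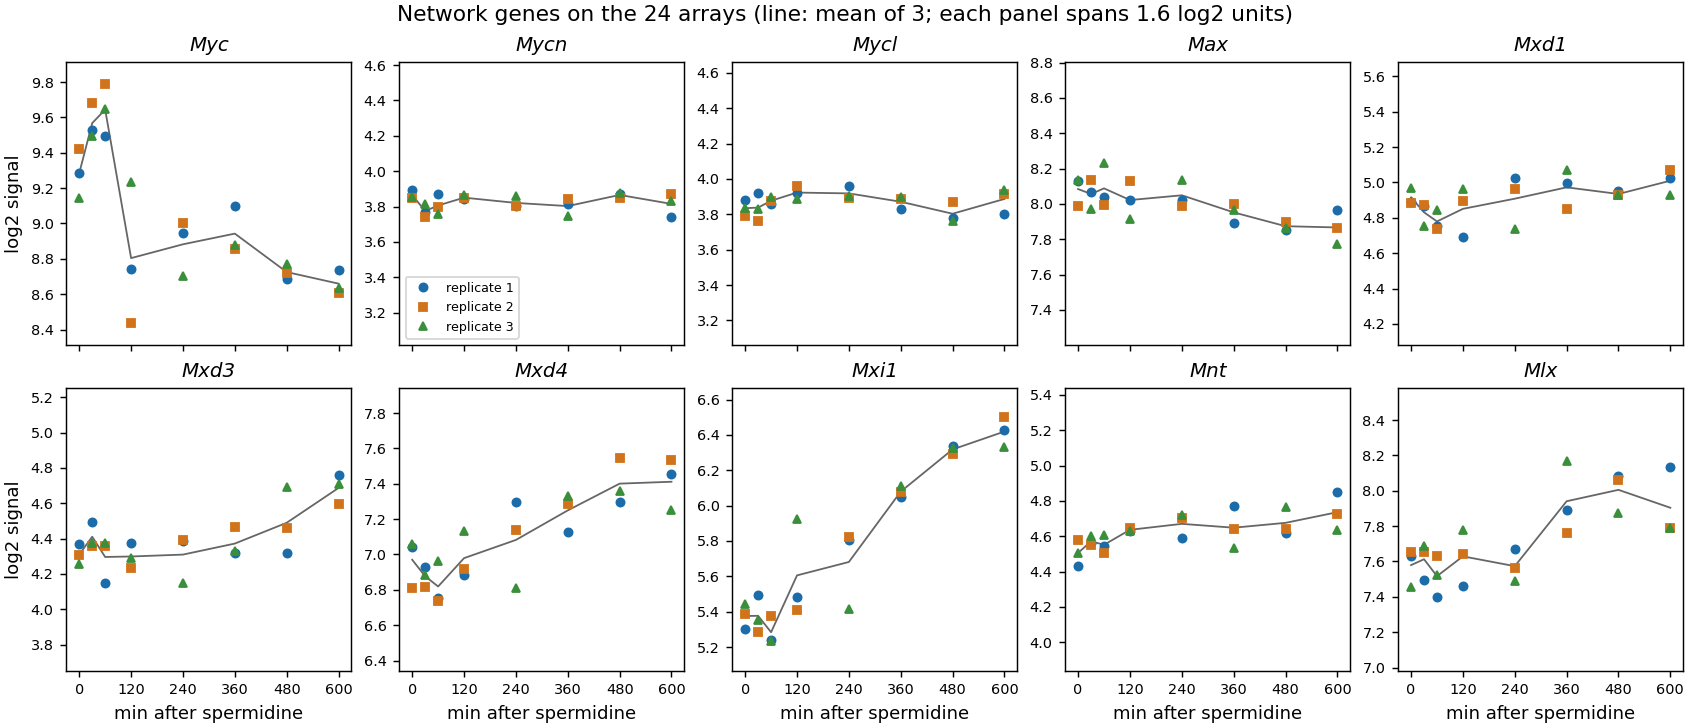
Log2 signal (vertical axis) of the 10 genes against min after spermidine (horizontal axis), with a symbol for each replicate array and a line through the mean of 3. Every panel spans the same log2 width, so slopes can be compared. Myc drops between 60 and 120 min, Mxi1 climbs from 120 min on, and Mycn and Mycl stay within 0.15 and 0.20 of a log2 unit.

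Myc, the activator, fell between 60 and 120 min and was lower than at the start at 480 and 600 min. At 0 min its 3 arrays read 9.29, 9.42 and 9.14. At 30 min they read 9.53, 9.68 and 9.50, and at 60 min 9.49, 9.79 and 9.65. All 6 early arrays thus lay above all 3 unstimulated ones, as the arrays of 30 min did in 5.1% and those of 60 min in 5.49% of all genes. The difference did not pass the test at either time: it was 0.28 ± 0.14 (SE) at 30 min (95% confidence interval -0.00 to 0.57, adjusted p = 0.897) and 0.36 ± 0.14 at 60 min (0.08 to 0.64, adjusted p = 0.898). At these times limma called 0.015% and 0.0251% of all genes and 0 of the 10 network genes. At an unadjusted p under 0.05 there was 1 of the 10 at each time, Mycn (lower) at 30 min and Myc at 60 min. The matching share of all genes was not counted.

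Between 60 and 120 min Myc fell by 0.84 ± 0.14 on the log2 scale (adjusted p = 0.00456), to 55.9% of its 60 min level. The arrays read 8.74, 8.44 and 9.23 at 120 min. The third of them, replicate 3, is 1 of the pair that stood apart. All 3 lay below the lowest array of 60 min, and the share of all genes doing so was not counted. Without that pair the fall was 1.06 (adjusted p = 4.23e-05), and the call was kept whichever single array of these times was left out. In that interval 0.306% of all genes fell, and Myc had the 24th largest fall among 19938 genes. It was the only network gene called between 60 and 120 min.

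Against 0 min, Myc differed by -0.48 ± 0.14 at 120 min (adjusted p = 0.128), where the arrays overlapped because replicate 3 lay at 9.23. Leaving out the pair gave -0.70 and an adjusted p of 0.00298, and leaving out replicate 3 of 120 min alone gave 0.0123. At 240 min its arrays were 8.94, 9.00 and 8.70 and at 360 min 9.10, 8.85 and 8.88, all below every 0 min array, as 11.1% of all genes were at 240 min and 17.3% at 360 min. The differences of -0.40 (adjusted p = 0.124) and -0.34 (adjusted p = 0.0925) did not pass the test. Leaving out the pair gave an adjusted p of 0.0632 for the former and 0.0085 for the latter. At 480 min the arrays had drawn together at 8.68, 8.72 and 8.77, a fall of 0.56 ± 0.14 (adjusted p = 0.00397). At 600 min they lay at 8.74, 8.61 and 8.64, a fall of 0.62 ± 0.14 (adjusted p = 0.00136). That is 64.8% of the 0 min level. Ordered by mean, Myc ran from 60 and 30 min through 0 min down to 360, 240, 120, 480 and 600 min. The step from 0 to 360 min was the only one between neighbours in that order that exceeded the 95% half-width of 0.28. These half-widths belong to the 95% confidence interval of a difference of 2 means, without adjustment for the number of steps or genes. Without the pair 120 min came last. The steps from 30 to 0 min (0.28) and from 0 to 240 min (0.31) then exceeded their half-widths. So did the step from 360 to 480 min (0.22), with half-widths of 0.19 to 0.21 among these steps. In that fit limma called none of these steps (adjusted p = 0.604, 0.0632 and 0.315).

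Mycn and Mycl, the paralogs known chiefly from neural tissue and from small cell lung cancer, gave weak, flat signals. Mycn ranged from 3.74 to 3.89 over the 24 arrays and Mycl from 3.76 to 3.96. Both lie under the array medians, and the files give no detection call, so whether they exceed background was not tested. At 30 min all 3 Mycn arrays lay under those of 0 min, as 8.32% of all genes did, with a difference of -0.09 (adjusted p = 0.846). Neither was called in any comparison, and the F-test over all times gave adjusted p = 0.406 for Mycn and 0.287 for Mycl. At 600 min the difference from 0 min was -0.05 for Mycn (95% confidence interval -0.13 to 0.03) and 0.05 for Mycl (-0.04 to 0.14). No neighbours in the order of their 8 time means differed beyond the half-width of the interval.

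Max, the partner that Myc and the Mxd proteins share, moved little. Its arrays read 8.13, 7.99 and 8.14 at 0 min. They read 7.86, 7.90 and 7.87 at 480 min and 7.97, 7.86 and 7.77 at 600 min, with all 6 late arrays under every 0 min array, as 19.7% of all genes were at 480 min and 19.9% at 600 min. Max fell by 0.21 ± 0.07 at 480 min (adjusted p = 0.0286) and by 0.22 ± 0.07 at 600 min (adjusted p = 0.0216), to 86.0% of its starting level. These calls were fragile. At 480 min the call ended without any of replicates 1 and 3 of 0 min and 1, 2 and 3 of 480 min, with adjusted p up to 0.109. At 600 min it ended when 0 min lost replicate 1 or 3, and when 600 min lost replicate 2 or 3, with adjusted p up to 0.118. No 2 neighbours in the order of its time means differed beyond the 95% half-width of 0.14.

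**Figure D2:**
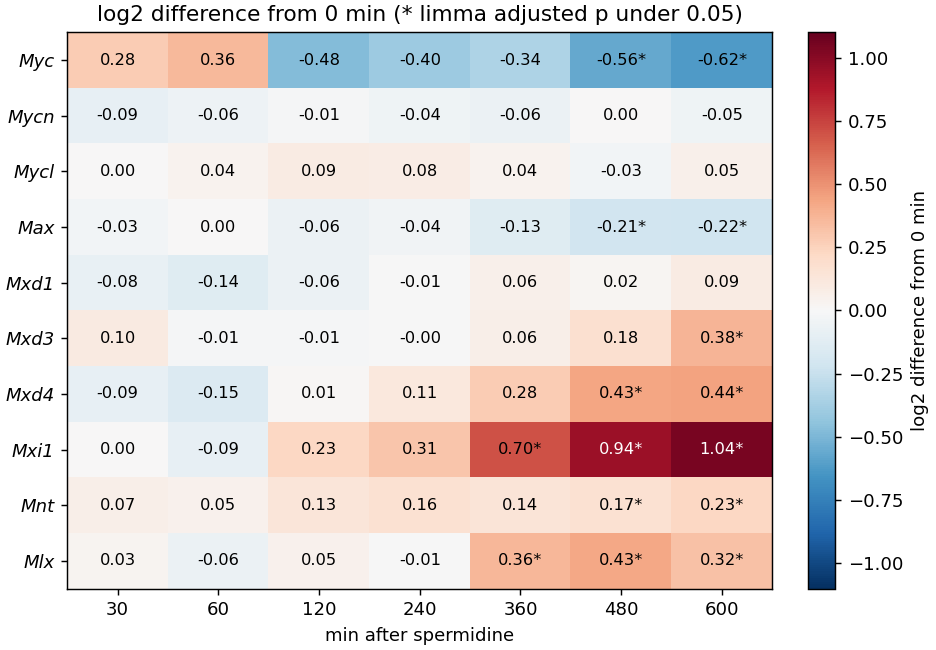
Log2 difference from 0 min of each network gene (rows) at each later time (columns, min after spermidine), with red for higher and blue for lower. An asterisk marks a limma adjusted p under 0.05; from 360 min on the calls gather in Mxi1, Mlx, Mxd4, Mnt and Mxd3 (higher) and Myc and Max (lower).

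Mxi1, which encodes a Mxd-type repressor also known as Mxd2, had the largest change from 0 min in the network. Its 0 min arrays read 5.30, 5.38 and 5.44, and those of 30 and 60 min lay between 5.23 and 5.49. At 360 min they were 6.05, 6.08 and 6.11. They reached 6.34, 6.29 and 6.32 at 480 min, then 6.43, 6.50 and 6.33 at 600 min. From 360 min on every array lay above every array of 0, 30 and 60 min. Wholly above 0 min alone lay 15.7%, 16.7% and 17.5% of all genes at 360, 480 and 600 min. The share lying above 30 and 60 min as well was not counted. Mxi1 rose by 0.70 ± 0.11 at 360 min (adjusted p = 1.11e-04), by 0.94 ± 0.11 at 480 min (adjusted p = 2.12e-06) and by 1.04 ± 0.11 at 600 min (adjusted p = 3.92e-07). The last value is a 2.06-fold rise, the 171st largest among 19938 genes. All 3 calls were kept whichever single array was left out.

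The 120 and 240 min arrays of Mxi1 show the pair that stood apart. At 120 min replicates 1 and 2 read 5.48 and 5.41 and replicate 3 read 5.93. At 240 min replicates 1 and 2 read 5.81 and 5.82 and replicate 3 read 5.42. With all arrays the differences from 0 min were 0.23 (adjusted p = 0.394) and 0.31 (adjusted p = 0.144). Without the pair they were 0.07 (adjusted p = 0.830) and 0.44 (adjusted p = 1.50e-04), and the step from 120 to 240 min was 0.37 (adjusted p = 0.00556) where it had been 0.08 (adjusted p = 0.875). The pair was picked for lying away from its own times over all genes, so the p-values without it may be too small. Between 240 and 360 min Mxi1 rose by 0.40 ± 0.11 (adjusted p = 0.0325), a call lost with the replicate block (0.0597). It was also lost without replicate 3 of 240 min or any replicate of 360 min, with adjusted p up to 0.257. In that interval 4.25% of all genes rose. From 360 to 480 min the difference of 0.24 was not called (adjusted p = 0.458), but was without the pair (0.0388), and not once the replicate block was added to that (0.0847). The order of time means put 600 and 480 min first, followed by 360, 240 and 120 min. The steps from 480 to 360, from 360 to 240 and from 120 to 30 min exceeded the half-width of 0.23. The last of these (0.23) rests on replicate 3 of 120 min: without the pair it was 0.07, within a half-width of 0.13, and the step from 240 to 120 min (0.37) exceeded its own of 0.14.

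Mxd4, a repressor found with Max in resting and differentiated cells, rose less than Mxi1 and was called at 480 and 600 min. At 0 min its arrays read 7.04, 6.81 and 7.06, and at 60 min 6.76, 6.74 and 6.96. The 360 min arrays read 7.13, 7.29 and 7.33 and those of 480 min 7.30, 7.55 and 7.36. Those of 600 min read 7.45, 7.53 and 7.25, and all 9 lay above every 0 min array. At 360, 480 and 600 min 15.7%, 16.7% and 17.5% of all genes did so. The rise was 0.43 ± 0.11 at 480 min (adjusted p = 0.00552) and 0.44 ± 0.11 at 600 min (adjusted p = 0.00402), a 1.36-fold change kept without any single array. At 360 min the difference of 0.28 was not called (adjusted p = 0.0863), but was without the pair that stood apart (0.0268). No neighbours in the order of its means differed beyond the 95% half-width of 0.23. Without the pair the step from 240 to 0 min (0.25) exceeded its half-width of 0.20, but limma did not call it (adjusted p = 0.15).

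Mxd3, a repressor whose RNA is known from dividing cells in S phase, was flat until late. Its 0 min arrays read 4.37, 4.31 and 4.26, and those of 480 min 4.32, 4.46 and 4.69. At 600 min they reached 4.76, 4.59 and 4.71, all above every 0 min array, as 17.5% of all genes were. The rise at 600 min was 0.38 ± 0.09 (adjusted p = 0.00197), while that of 0.18 at 480 min was not called (adjusted p = 0.155). Without replicate 1 of 480 min the latter became 0.27 (adjusted p = 0.0338). The 600 min mean exceeded the next highest, that of 480 min, by 0.20, beyond the half-width of 0.18. All other neighbours in the order lay within it. The limma test of 600 against 480 min did not call that difference (adjusted p = 0.535). Signals of Mxd3 are close to the array medians.

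Mnt, a widely expressed repressor that competes with Myc for Max, rose slightly. Its 0 min arrays read 4.43, 4.58 and 4.51, those of 480 min 4.62, 4.64 and 4.77, and those of 600 min 4.85, 4.73 and 4.63. The difference was 0.17 ± 0.06 at 480 min (adjusted p = 0.0454) and 0.23 ± 0.06 at 600 min (adjusted p = 0.00620). The 480 min call ended with the replicate block (0.0707), without the pair that stood apart (0.0521), and when 0 min lost replicate 1 or 3 or 480 min lost replicate 2 or 3 (up to 0.214). The 600 min call did not end when any single array was left out, with adjusted p up to 0.0476. The neighbours in its order of means all lay within 0.13 of each other.

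Mxd1, the first described member of the Mxd group, was not called at any time against 0 min. Its arrays ran from 4.69 (120 min) to 5.07 (600 min). At 600 min the difference was 0.09 (95% confidence interval -0.06 to 0.25, adjusted p = 0.413). At 60 min all 3 arrays (4.76, 4.74 and 4.85) lay under the lowest 0 min array (4.88), as 6% of all genes did, with a difference of -0.14 and adjusted p = 1.00. The order of its means placed 600, 360 and 480 min above 0 min and 30 and 60 min at the bottom, with every neighbouring step within 0.15.

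Mlx, the alternative partner, rose at 360 min. Its arrays were 7.63, 7.65 and 7.46 at 0 min and 7.67, 7.56 and 7.49 at 240 min. They read 7.89, 7.76 and 8.17 at 360 min. At 480 min they were 8.08, 8.06 and 7.87, and 600 min gave 8.13, 7.79 and 7.79. All 9 late arrays lay above every 0 min array. At 360, 480 and 600 min 15.7%, 16.7% and 17.5% of all genes did so. The rises of Mlx were 0.36 ± 0.11 (adjusted p = 0.0227), 0.43 ± 0.11 (adjusted p = 0.00570) and 0.32 ± 0.11 (adjusted p = 0.0305). The 360 min call ended without replicate 3 of 0 min or of 360 min (up to 0.153), and the 600 min call without replicate 3 of 0 min or 1 of 600 min (up to 0.184), while that at 480 min was kept. Between 240 and 360 min Mlx rose by 0.37 (adjusted p = 0.0499), a call lost with the replicate block (0.0848), without the pair that stood apart (0.177), or when 240 min lost replicate 2 or 3 or 360 min lost replicate 1 or 3 (up to 0.254). The gap of 0.27 between 600 and 120 min was the only one in its order of means beyond the half-width of 0.23.

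Counted together, 2 of the 10 genes were higher at 360 min and 0 lower (background 8.47% higher and 10.5% lower). Without the pair that stood apart 4 of the 10 were called. For fits without the pair the share of all genes called was not counted, at this or any other time. At 480 min 4 were higher and 2 lower (9.73% and 14.5%), and at 600 min 5 were higher and 2 lower (11.2% and 15.7%). The median difference of the 10 at 600 min was 0.16, against 0.01 over all genes. At 120 and 240 min limma called 0 of the 10, beside 0.471% and 3.06% of all genes. At an unadjusted p under 0.05 there were 3 of the 10 at each time, and the matching share of all genes was not counted. Without the pair limma called 1 at each, Myc at 120 min and Mxi1 at 240 min. At 120 and 240 min the arrays of Mycl and Mnt lay wholly above those of 0 min, as 5.7% and 7.73% of all genes did. The 7 comparisons share the 0 min arrays and are not independent. The F-test over all times called 6 of the 10 (Myc, Max, Mxd3, Mxd4, Mxi1 and Mlx) beside 30.9% of all genes. Mxd1 joined them without the pair (adjusted p = 0.0238), but not with the replicate block as well (0.0523). Max left with the block and without the pair (0.0562), with the replicate block (0.0889) or when any 1 of 15 of the 24 arrays, at least 1 from every time, was left out (up to 0.105). Mxd3 left without replicate 1 of 600 min (0.0589).

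A further comparison did not use the 0 min arrays. The mean of 360, 480 and 600 min was set against the mean of 30, 60 and 120 min, with 9 arrays on each side. Of the 10 genes 6 were higher late (background 16.4%) and 2 lower (19.4%). Mxi1 was higher by 0.85 ± 0.06 (adjusted p = 1.25e-09), from a mean of 5.42 to 6.27, and its 9 late arrays all lay above its 9 early ones, which 4.15% of all genes did. Mxd4 was higher by 0.46 ± 0.06 (adjusted p = 4.76e-06) and Mlx by 0.36 ± 0.06 (adjusted p = 7.52e-05). The smaller rises were 0.18 for Mxd3 (adjusted p = 0.00584), 0.15 for Mxd1 (adjusted p = 0.00666) and 0.10 for Mnt (adjusted p = 0.0289). Myc was lower by 0.56 ± 0.08 (adjusted p = 6.28e-06) and Max by 0.16 ± 0.04 (adjusted p = 0.00297). Thus all 5 genes of Mxd-type repressors were higher late than early, while Myc and the shared partner Max were lower. Higher late than early does not mean higher than at 0 min. Mxd1 differed from 0 min by -0.08, -0.14 and -0.06 at 30, 60 and 120 min. At 360, 480 and 600 min it differed by 0.06, 0.02 and 0.09, and limma called none of these differences. The call of Mnt was lost on leaving out any 1 of 5 arrays (up to 0.0709). These were replicate 2 of 30 min, replicate 2 of 60 min, replicate 1 of 360 min, replicate 3 of 480 min and replicate 1 of 600 min. It was also lost with median centring (0.0954) and without the pair with the replicate block (0.0661). The other 7 calls were kept under every alternative run.

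**Figure D3:**
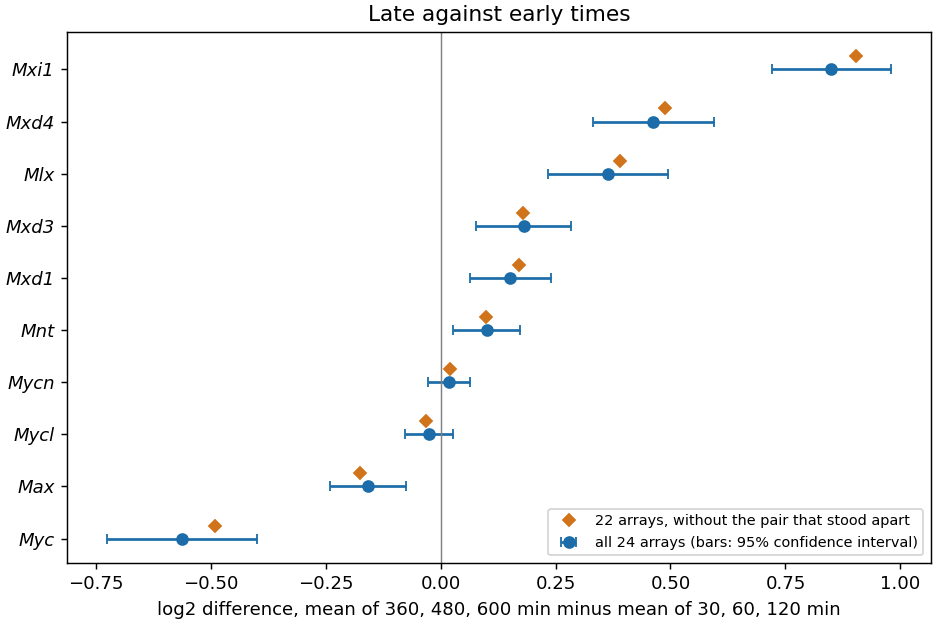
Log2 difference of the late times (360, 480 and 600 min) from the early times (30, 60 and 120 min) on the horizontal axis for each network gene, sorted by size. Circles with bars are the limma estimates on 24 arrays with 95% confidence intervals, and diamonds the estimates on 22 arrays without the pair that stood apart; Mxi1 lies at 0.85 and Myc at -0.56, and Mycn and Mycl cross 0.

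The genes whose 24 array values ran most like a network gene were found by Pearson's r over the arrays. Gene models without a proper name, such as Gm, LOC and Rik symbols, were passed over. The values of r are a description, since arrays of 1 time share their treatment. Closest to Myc were Edn1, which encodes the peptide endothelin 1 (r = 0.905), Zfp346 (0.874) and the nuclear pore gene Nup62 (0.864). At 600 min these were lower than at 0 min by 0.72, 0.64 and 0.31. Closest to Mxi1, all at 0.987, were Nqo1, a quinone reductase gene, Bnip3, hypoxia-induced and encoding a mitochondrial protein, and the replicative helicase gene Mcm4. Mxd4 ran with the heat shock cochaperone gene Bag3 (0.945), Flrt2 (0.939) and the chaperone gene Hspa4l (0.934). Mlx ran with Nup50 (0.928), Dpp3 (0.923) and Fgd1 (0.920), Mxd3 with Fto (0.840), Ndc1 (0.837) and Mblac2 (0.836), and Max with Itpripl2 (0.886), Ube2f (0.871) and the arginine transporter gene Slc7a1 (0.864).

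The other genes around the network were taken from lists drawn up from general knowledge. At 600 min 11.2% of all genes rose and 15.7% fell, with a median of 0.01, and the counts of each list stand against these shares. Of the 3 remaining partners, Mga, the gene of a large protein that joins Max in a repressive complex, fell by 0.77 ± 0.12 at 600 min (adjusted p = 3.08e-05). Mlxip (-0.16, adjusted p = 0.105) and Mlxipl (-0.00, adjusted p = 0.962), the partners of Mlx, were not called. Of 6 genes known to be driven by Mlxip or Mlxipl with Mlx, 1 fell and 0 rose at 600 min, near the share over all genes (15.7% lower) and with a median of -0.09, with 1 to 3 lower and 0 to 1 higher on leaving out 1 array. This was Txnip, their best known target, whose product binds thioredoxin (-1.04 ± 0.15, adjusted p = 1.88e-05). Arrdc4, its relative in the same list, was at -0.26 (adjusted p = 0.0579). The remaining 4 were Mid1ip1 at 0.13, Klf10 at -0.19, Pklr at 0.09 and G6pc at 0.00.

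Of 17 measured genes of the Sin3 and NCoR corepressor complexes, 8 rose and 2 fell at 600 min (11.2% and 15.7% of all genes), with a median of 0.16 against 0.01 over all genes. Without replicate 1 of 0 min 5 rose, and without 1 array at a time 1 to 3 fell. Sin3a, the scaffold that Mxd proteins bind, rose from 7.11 to 8.21 at 360 min (1.1 ± 0.22, adjusted p = 0.00111) and was still 0.95 higher at 600 min (adjusted p = 0.00232). Ing1, of the same complex, rose by 0.84 (adjusted p = 2.64e-04) and the histone-binding subunit gene Rbbp7 by 0.49 (adjusted p = 1.35e-05), while Arid4b fell by 0.38 (adjusted p = 2.22e-05). Tbl1x, of the NCoR complex, rose by 0.47 (adjusted p = 2.13e-05). Its relative Tbl1xr1 rose by 0.31 (adjusted p = 0.0222), a call lost without replicate 1 or replicate 2 of 0 min or replicate 3 of 600 min (up to 0.11).

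Of 16 coactivator and cofactor genes 3 rose and 3 fell at 600 min (11.2% and 15.7% of all genes), with a median of 0.02, and with 2 to 5 higher and 2 to 4 lower on leaving out 1 array. Actl6a, a subunit of several chromatin complexes, rose by 0.63 (adjusted p = 3.46e-06), and Zbtb17, whose product Miz-1 Myc uses to repress genes, fell by 0.32 (adjusted p = 4.17e-04). Paf1, of an elongation complex, rose by 0.40 (adjusted p = 8.80e-04), and Ccnt1, the cyclin partner of Cdk9, fell by 0.31 (adjusted p = 0.00157), while Cdk9 was at 0.04 (adjusted p = 0.761). The acetyltransferase gene Kat2a rose by 0.26 (adjusted p = 0.0191), a call lost when 0 min lacked replicate 2 or 3 or 600 min lacked replicate 1 (up to 0.132).

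Among 23 genes of Myc protein turnover and phosphorylation, 6 rose and 6 fell at 600 min (11.2% and 15.7% of all genes), with a median of 0.03. Skp2, of a ubiquitin ligase that acts on Myc, rose by 0.80 ± 0.12 (adjusted p = 3.15e-05), and Axin1, a scaffold for Myc degradation, by 0.44 (adjusted p = 3.47e-04). Gsk3b, the kinase that marks Myc for degradation, fell by 0.40 ± 0.05 (adjusted p = 1.73e-06), and the deubiquitinase gene Usp22 by 0.66 (adjusted p = 1.16e-07). The mitotic kinase gene Plk1 rose by 0.57 (adjusted p = 1.06e-04), and Fbxo28 was at 0.02 (adjusted p = 0.874). Myc protein was not measured.

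Of 46 measured genes that Myc is known to activate, 10 rose and 19 fell at 600 min (11.2% and 15.7% of all genes), with a median of -0.13 against 0.01 over all genes. The ribosome assembly genes Bop1 (-0.70, adjusted p = 9.63e-08) and Gnl3 (-0.64, adjusted p = 9.76e-08) fell, as did the nucleotide enzyme genes Nme1 (-0.59, adjusted p = 1.88e-09) and Dnph1 (-0.80, adjusted p = 1.69e-08). Cdc25a, a cell cycle phosphatase gene, rose by 1.05 at 360 min and stood 0.64 higher at 600 min (adjusted p = 2.72e-04), and Apex1, a DNA repair enzyme gene, rose by 0.54 (adjusted p = 4.93e-07). Promoter windows were matched for 45 genes of this list, and 10 held CACGTG (22.2%, against 8.09% of all genes in the table). Of 12 measured genes that Myc is known to repress, 3 rose and 3 fell at 600 min (11.2% and 15.7% of all genes), with a median of 0.02. Gas1, a growth arrest gene, rose by 0.80 (adjusted p = 2.59e-06) and Cdkn1b, the gene of the inhibitor p27, by 0.52 (adjusted p = 0.00358). Gadd45a, a stress-induced growth arrest gene, fell by 1.12 ± 0.18 (adjusted p = 8.25e-05), and Thbs1, the gene of the matrix protein thrombospondin 1, by 0.66 (adjusted p = 0.00249). The receptor gene Pdgfrb rose by 0.42 (adjusted p = 0.0198), a call lost when 0 min lacked replicate 2 or 3 or 600 min lacked replicate 3 (up to 0.109). The ferritin gene Fth1 was at 0.06 (adjusted p = 0.203).

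**Figure D4:**
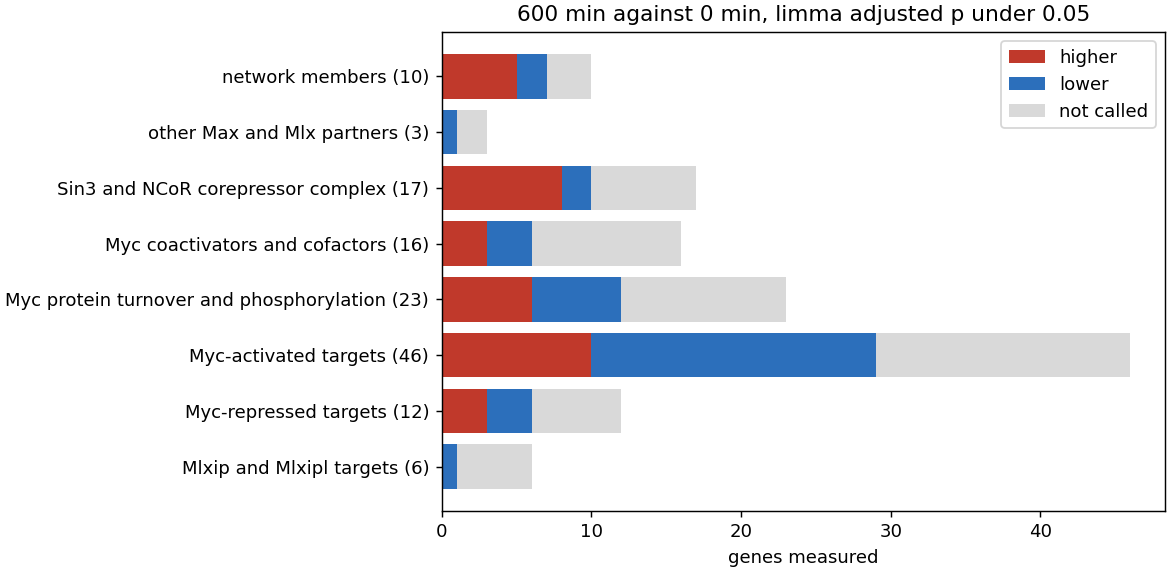
Number of genes (horizontal axis) in each list that were higher (red), lower (blue) or not called (grey) at 600 min against 0 min by limma at an adjusted p under 0.05, with the number measured in brackets. Among the network genes 5 were higher and 2 lower, and among the 46 Myc-activated targets 10 were higher and 19 lower.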

How the data were processed

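Per the submitters' processing notes, Partek and robust multi-array averaging (RMA) were used on the 24 arrays. Their versions and the genome build are not given in the sources used here. Deposited log2 values entered the fits unchanged. That they are log2 was inferred from their range (2.94 to 13.6) and the method. An effect of replicate number had been removed before deposit, by a step not described in the sources used here.

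The platform annotation gives a single symbol for 21789 of the 35399 probe sets, more than 1 for 1621 and no symbol for 11989. Only the first kind was used, taking the highest-mean probe set per gene, which gave 19938 genes. Of these symbols 0 were updated from RefSeq (GRCm38.p6) and 91 without a match were kept. The model had 1 mean per time over all arrays (limma 3.58.1, R 4.3.3, the data.table package at version 1.17.8, 16 residual and 3.48 prior degrees of freedom, two-sided moderated tests), with Benjamini-Hochberg adjustment within each comparison over all genes. It was tested on simulated data. The median standard error was 0.0567, and precision is limited by having 3 arrays per time.

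The network genes, lists and comparisons were chosen with earlier results of these data known. All 10 network genes are named, and up to 6 genes per other list by F-test. For each network gene called by the F-test, the 3 genes most like it among those with a proper name are given. Of 134 genes listed outside the network, 11 were not measured by a probe set with 1 symbol. Apart from setting signals beside the array medians or the median gene, levels of different probe sets were not compared. Alternatives were a replicate block, other scalings, probe set rules, priors and filters, and leaving out arrays. Whether replicates came from separate cultures beyond their label as biological replicates is not stated.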

Additional observations from a re-analysis of the deposited data

How the results depend on the processing

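No alternative reversed a called change. With the replicate block 1 network gene was called over the 6 neighbouring intervals, against 3 without it, and the counts at each time, late against early and in the F-test stayed within 1.5 times. At 360 min the count of 2 became 4 with the brighter genes only, with a fit to only the 6 arrays compared, without the pair that stood apart and without that pair with the block, Myc and Mxd4 being added each time. Without the pair, with or without the block, 1 was called at 120 min and 1 at 240 min, against 0. For these alternatives the share of all genes called was not counted. Leaving out 1 array gave 0 to 0 calls at 30 and at 60 min, 0 to 1 at 120 and at 240 min, 1 to 2 at 360 min, 4 to 6 at 480 min, 5 to 7 at 600 min, 7 to 8 late against early, 5 to 6 in the F-test and 1 to 3 over the intervals. Quantile normalization ended the calls of Max at 480 and 600 min and in the F-test, and median centring those of Mnt at 480 min and late against early. Leaving out the pair was chosen after seeing the data. The labels do not say that replicate numbers pair the samples, and the removal of their effect before deposit makes same-numbered deviations cancel over the times, so the deposited values cannot show whether they do. The weak signals of Mycn and Mycl, below the array medians, limit what can be seen of them. Those of Mxd3 and Mnt lie close to the array medians.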
